A study of Mus musculus with 2 samples.

Results

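The aminoacyl-tRNA synthetase genes were analysed at their transcription start sites (TSSs) in ChIP-seq of Msl1 and Nsl1, the subunits that mark the MSL and NSL complexes of the histone acetyltransferase Mof. The group holds 36 named genes of the 22359 protein-coding genes of the mm9 annotation used here. Of these, 20 encode cytosolic synthetases and 16 encode mitochondrial synthetases, whose names end in 2. The members are given by name, and no measured value enters the rule. Chromatin came from wild type mESCs, mouse embryonic stem cells that the labels give as E14, passage P26, genotype wt and genetic background 129P2/OlaHsd, with no treatment. It was precipitated with the polyclonal rabbit antibody anti-Msl1 (3208) or anti-Nsl1 (3130), and 1 library was made per antibody. With 1 library each, no difference has a replicate check and no p-value is given.

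Aminoacyl-tRNA synthetases attach each amino acid to its tRNA, the step that fixes the meaning of the genetic code during translation. Most amino acids are served by separate nuclear genes for the cytosolic and the mitochondrial enzyme, and several cytosolic enzymes are held together in a multi-synthetase complex by scaffold proteins. Both Mof complexes acetylate histones, MSL mainly histone H4 at lysine 16, while NSL is known for binding at promoters of housekeeping genes, to which the synthetase genes belong. Atf4, a transcription factor of the amino acid response, is known to regulate several cytosolic synthetase genes.

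The Msl1 library held 19483142 distinct nuclear reads and the Nsl1 library 24883001, after 1 read was kept per position and strand. The libraries also differed in kit, NEXTFlex for Msl1 and NEBNext for Nsl1, and in read length, 50 against 36 bases, which cannot be told apart from the antibody. Of 8 genes that mark mESCs, 2 had an Msl1 ratio of at least 3 and none an Nsl1 ratio of at least 3. Of 6 genes that mark other cell types none reached 3 in either library. Over all protein-coding TSSs tested the shares were 23.8% in Msl1 and 24.2% in Nsl1, so the 2 of 8 genes were near the Msl1 share at the TSS. The ratio is the number of reads within 500 bases of the TSS divided by the local level, which is the number expected from the reads of that library lying 5 to 50 kb to either side. From 2 kb after the TSS to the gene end, the mESC markers had a median Msl1 level of 2.77 times the local level. The median was 0.848 over the markers of other cell types, and genes shorter than 5 kb gave no value. The intervals in parentheses are exact 95% Poisson intervals and cover counting error only.

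Within 500 bases, most synthetase TSSs reached a ratio of 3 in Nsl1, and about as many did as did not in Msl1. A ratio under 3 does not show that a TSS was not enriched. At a ratio of at least 2 the Msl1 count was 31 of 36, beside 46.4% of all TSSs. The lowest lower limit of an Msl1 interval was 1.004, at Aars2. The Nsl1 count depends on this window, since with 1000 bases 19 of 36 genes reached an Nsl1 ratio of 3, beside 13.6% of all TSSs. An Nsl1 ratio of at least 3 was found at 29 of 36 genes, beside 24.2% of the 21737 protein-coding TSSs tested, and an Msl1 ratio of at least 3 at 19 of 36, beside 23.8%. The median Nsl1 ratio was 4.59 against 1.72 over all TSSs, and the median Msl1 ratio was 3.09 against 1.87. Both ratios reached 3 at 18 genes, 50% of the group, where 11.8% of all TSSs had both. A further 11 genes reached 3 in Nsl1 only, Sars did so in Msl1 only, and 6 genes, Mars, Vars, Wars, Aars2, Cars2 and Vars2, stayed under 3 in both libraries. The Nsl1 ratio was above the Msl1 ratio at 28 of 36 genes (52.2% of all TSSs).

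**Figure D1:**
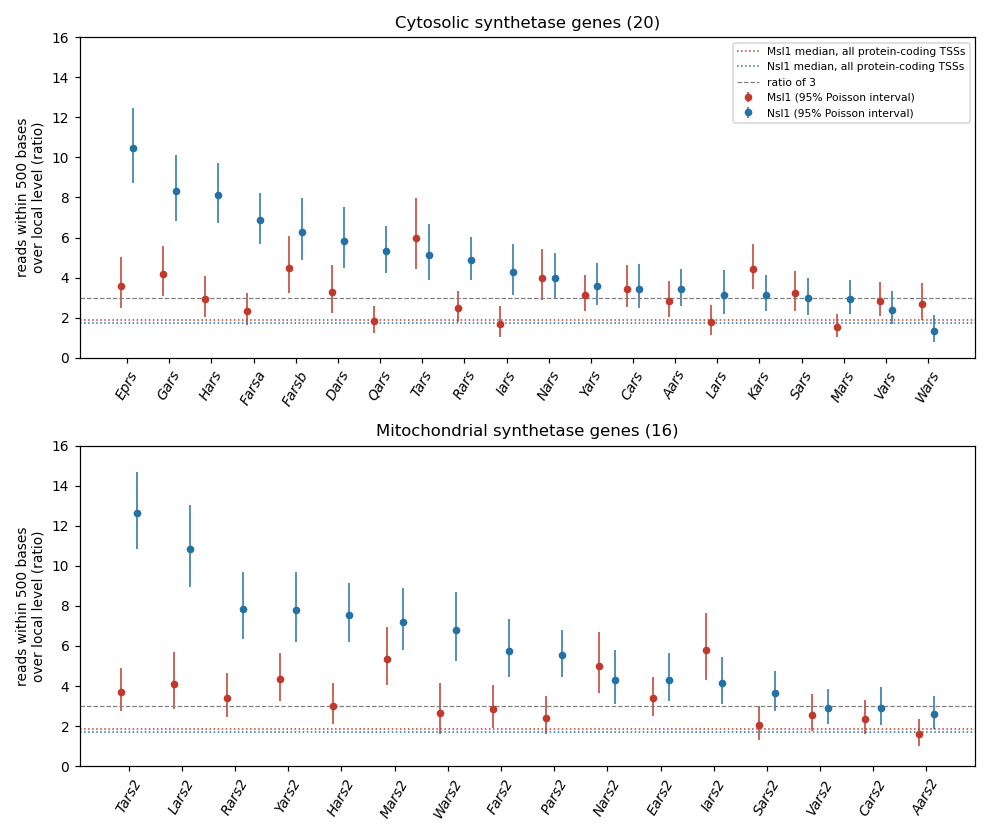
Reads within 500 bases of the TSS over the local level (vertical axis, ratio) for each synthetase gene, cytosolic above and mitochondrial below, sorted by the Nsl1 value. Points are single libraries with exact 95% Poisson intervals, dotted lines are the medians of all protein-coding TSSs, and the dashed line is a ratio of 3. Nsl1 spans 1.36 at Wars to 12.7 at Tars2, while Msl1 spans 1.52 at Mars to 6.0 at Tars.

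The highest Nsl1 ratios were at Tars2 and Lars2, the mitochondrial threonyl- and leucyl-tRNA synthetase genes, and at Eprs, the gene of the bifunctional enzyme that charges glutamate and proline tRNAs. Tars2 had 171 Nsl1 reads within 500 bases, 12.7 times the local level (10.8 to 14.7), and 49 Msl1 reads, 3.71 times (2.74 to 4.90). Lars2 had 112 Nsl1 reads, a ratio of 10.9 (8.93 to 13.1), and 34 Msl1 reads, a ratio of 4.09 (2.83 to 5.72). Eprs had 125 Nsl1 reads, a ratio of 10.5 (8.71 to 12.5), and 33 Msl1 reads, a ratio of 3.59 (2.47 to 5.04). The Nsl1 intervals of these 3 genes overlapped each other, and each lay above its Msl1 interval. The 200 bases upstream of each of these TSSs in mm9 are shown because these genes had the highest Nsl1 ratios of the group. The Nsl1 summits themselves lay 200 bases upstream at Eprs, at the TSS at Tars2 and 50 bases downstream at Lars2, so the stretches cover them only in part. None is exonic, and none holds the letters of a motif searched, so no letter is in capitals. The sequences differ in composition, with 50% G and C at Tars2, 60.5% at Lars2 and 69.0% at Eprs.
Tars2, chr3:95558901-95559100, minus strand: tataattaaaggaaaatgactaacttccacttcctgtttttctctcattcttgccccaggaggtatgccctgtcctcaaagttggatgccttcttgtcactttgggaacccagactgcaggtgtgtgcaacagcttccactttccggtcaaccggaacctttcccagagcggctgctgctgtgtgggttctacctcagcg
Lars2, chr9:123275858-123276057, plus strand: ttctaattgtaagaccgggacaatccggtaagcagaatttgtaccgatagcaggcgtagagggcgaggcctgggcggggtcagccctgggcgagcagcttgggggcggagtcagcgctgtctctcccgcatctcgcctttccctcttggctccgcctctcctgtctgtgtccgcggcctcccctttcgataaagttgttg
Eprs, chr1:187186774-187186973, plus strand: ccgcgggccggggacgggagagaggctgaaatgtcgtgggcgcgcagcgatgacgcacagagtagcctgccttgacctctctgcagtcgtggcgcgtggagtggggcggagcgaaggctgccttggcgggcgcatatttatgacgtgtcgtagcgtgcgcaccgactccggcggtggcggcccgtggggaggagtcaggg

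Among the 8 genes whose products join the multi-synthetase complex, Nsl1 reached a ratio of 3 more often than Msl1 did, as over all 36 members. The Nsl1 ratio reached 3 at 7 of 8 (24.2% of all TSSs) and the Msl1 ratio at 3 of 8 (23.8%), Dars, Eprs and Kars. Kars, which serves lysine tRNAs in both compartments, had 65 Msl1 reads, the most of any member, a ratio of 4.44 (3.43 to 5.66), and 49 Nsl1 reads, a ratio of 3.14 (2.32 to 4.15). Its intervals in the 2 libraries overlapped, and its Msl1 interval overlapped those of Eprs and Dars. The TSS of Terf2ip lies 71 bases from that of Kars, so these reads could belong to either gene. Dars (aspartate) had the ratios 3.26 in Msl1 and 5.85 in Nsl1, Qars (glutamine) 1.82 and 5.31, and Rars (arginine) 2.47 and 4.87. Iars (isoleucine) had 1.67 and 4.26, Lars (leucine) 1.76 and 3.15, and Mars (methionine) 1.52 and 2.94. Mars, Iars and Lars had 3 of the 4 lowest Msl1 ratios of all members, between 1.52 and 1.76, and the other was Aars2 with 1.58. The median Msl1 ratio of the complex genes was 2.14, against 3.20 at the other 12 cytosolic genes, while their median Nsl1 ratios were 4.57 and 3.77. The value of 3.77 counts Wars at an Nsl1 ratio of 1.36, where its more upstream start gave 10.9, as given below. Msl1 over Nsl1 reads within 2 kb of the TSS, per read of each library, had close medians of 1.21 and 1.26.

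Of the 12 other cytosolic genes, 7 reached an Msl1 ratio of 3 (23.8% of all TSSs) and 9 an Nsl1 ratio of 3 (24.2%). Tars, the cytosolic threonyl-tRNA synthetase gene, had the highest Msl1 ratio of the group, 6.0 (4.43 to 7.96) from 48 reads, which is higher than at 98.6% of all TSSs. Its Msl1 local level, 7.99 reads per kb, was the lowest of the cytosolic genes. Its Nsl1 ratio was 5.13 (3.87 to 6.66) from 56 reads. Gars, which charges glycine tRNAs in both compartments, had 48 Msl1 reads, a ratio of 4.19 (3.09 to 5.56), and 103 Nsl1 reads, a ratio of 8.34 (6.80 to 10.1). The genes of both subunits of the phenylalanine enzyme had close Nsl1 ratios, 6.86 (5.66 to 8.23) at Farsa and 6.28 (4.86 to 7.99) at Farsb. Their Msl1 ratios were 2.34 (1.63 to 3.25) at Farsa and 4.48 (3.22 to 6.08) at Farsb, with intervals that overlapped only between 3.22 and 3.25. The ratios in Msl1 and Nsl1 were close to each other at Nars (asparagine, 4.01 and 3.96), Cars (cysteine, 3.45 and 3.45), Yars (tyrosine, 3.15 and 3.57) and Sars (serine, 3.24 and 2.97). Aars (alanine) had 2.84 and 3.43, and Vars (valine) had 2.83 and 2.40. At the other annotated start of Aars, 758 bases upstream, the ratios were 1.92 (1.27 to 2.77) in Msl1 and 2.2 (1.54 to 3.05) in Nsl1 from 28 and 36 reads, so that its Nsl1 ratio reached 3 only at the start used here.

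Both ratios were above 3, with Nsl1 the higher, at Lars2, Tars2 and 5 other mitochondrial genes. Yars2 had 55 Msl1 and 81 Nsl1 reads, ratios of 4.34 (3.27 to 5.65) and 7.79 (6.19 to 9.68). Mars2, a gene of 1 exon, had 56 and 87 reads, ratios of 5.34 (4.03 to 6.93) and 7.21 (5.77 to 8.89). Rars2 had 3.41 and 7.86, Hars2 had 3.02 and 7.57, and Ears2, which charges glutamate tRNAs, had 3.39 and 4.31. Msl1 had the higher ratio only at Iars2 and Nars2 among the mitochondrial genes. Iars2 had 50 Msl1 reads, a ratio of 5.79 (4.29 to 7.63), and 54 Nsl1 reads, a ratio of 4.16 (3.13 to 5.43). Nars2 had 44 and 43 reads, ratios of 5.0 (3.63 to 6.71) and 4.32 (3.13 to 5.82), and at both genes the intervals of the libraries overlapped. Nsl1 alone reached 3 at Wars2 (2.66 in Msl1 and 6.81 in Nsl1), Fars2 (2.85 and 5.75), Pars2 (2.42 and 5.54) and Sars2 (2.04 and 3.65). The lowest Nsl1 ratios of the mitochondrial genes were at Aars2 (1.58 in Msl1 and 2.59 in Nsl1), Cars2 (2.34 and 2.88) and Vars2 (2.54 and 2.89).

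The median Nsl1 ratio was 4.11 over the 20 cytosolic and 5.64 over the 16 mitochondrial genes, with ranges of 1.36 to 10.5 and 2.59 to 12.7 that overlapped nearly throughout. The median Msl1 ratios were 3.04 and 3.20, and the order of these medians turned when the level of the library over the genome, or that from 10 to 100 kb, took the place of the local level. At least 3 was reached by 16 of 20 cytosolic and 13 of 16 mitochondrial genes in Nsl1 (24.2% of all TSSs). In Msl1 it was reached by 10 of 20 and 9 of 16 (23.8%). Genes are not replicates, and no test was made between the compartments.

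For 13 amino acids the cytosolic and the mitochondrial gene could be set side by side in the same library, each ratio having a 95% interval from its read counts. In Nsl1 the mitochondrial gene had the higher ratio at 6 pairs and the cytosolic gene at none, and the interval held 1 at the other 7. The mitochondrial gene was higher by 5.02 times for tryptophan (2.96 to 8.51), 3.45 times for leucine (2.34 to 5.07) and 2.47 times for threonine (1.8 to 3.38). It was also higher for methionine (2.46 times), tyrosine (2.18 times) and arginine (1.62 times). The tryptophan pair rests on the start chosen for Wars and turned over at the more upstream start, as given below. In Msl1 the mitochondrial gene was higher for methionine (3.51 times, 2.22 to 5.53), isoleucine (3.47 times, 2.05 to 5.87) and leucine (2.32 times, 1.36 to 3.97). With windows of 1000 bases the isoleucine value was 1.65 (1.15 to 2.37), while those of methionine and leucine were 3.34 and 2.29. Within 2 kb Iars had 103 Msl1 reads and Iars2 had 83, at local levels of 12.0 and 8.63 reads per kb. The cytosolic gene was higher in Msl1 for alanine, with a mitochondrial over cytosolic ratio of 0.558 (0.333 to 0.936), and for threonine, with 0.617 (0.410 to 0.929). The alanine pair was not apart in Msl1 at the more upstream Aars start. The threonine pair was therefore ordered in opposite ways, with Tars higher in Msl1 and Tars2 higher in Nsl1. For methionine and leucine the mitochondrial gene was higher in both libraries. In Msl1, Tars and Tars2 had nearly equal reads, 48 and 49, at local levels of 7.99 and 13.2 reads per kb. Likewise Rars and Rars2 had 87 and 90 Nsl1 reads at local levels of 17.9 and 11.4. The other pairs that were apart differed in reads in the same direction. No pair was run against the level of the whole library. For cysteine, histidine, asparagine, serine and valine the intervals held 1 in both libraries, which does not show that the genes were alike. The histidine genes share most reads, so their interval could hardly have left 1. In Msl1 the cysteine pair was apart with windows of 1000 bases, at 0.636 (0.444 to 0.911), and the serine pair with all reads kept, at 0.638 (0.411 to 0.992). With all reads kept the tyrosine pair was also apart in Msl1, the other way, at 1.47 (1.03 to 2.08). In Nsl1 the alanine pair was apart with windows of 1000 bases, with the cytosolic gene higher, at 0.671 (0.473 to 0.953).

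**Figure D2:**
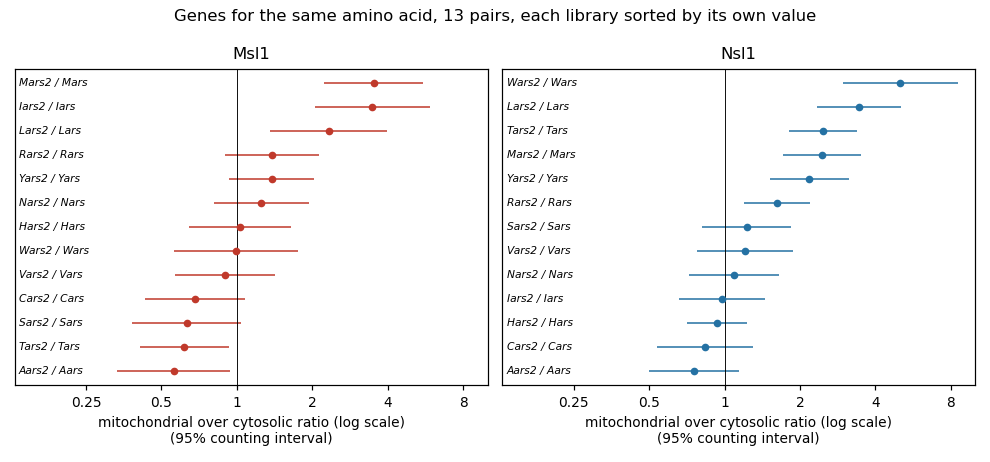
Ratio of the mitochondrial over the cytosolic gene for the same amino acid (horizontal axis, log scale) in Msl1 and Nsl1, 13 pairs, each panel sorted by its own value, with 95% counting intervals and a line at 1. In Nsl1 the intervals of 6 pairs lie above 1 and none below it, and in Msl1 3 lie above and 2 below.

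Wars had the lowest Nsl1 ratio at the start of its longest coding sequence, 1.36 (0.805 to 2.15) from 18 reads. This TSS, at chr12:110131407 on the minus strand, had an observed over expected CpG ratio of 0.0699 in its promoter, the lowest of the group, whose median was 0.776. Another annotated start of the gene lay 977 bases upstream, where 145 Nsl1 reads gave a ratio of 10.9 (9.20 to 12.8) and 49 Msl1 reads a ratio of 3.75 (2.77 to 4.95). The Nsl1 interval at this start overlapped those of Tars2, Lars2 and Eprs. Its reads cannot be assigned to Wars alone, since the divergent gene Wdr25 starts 98 bases away. The sequence between the starts of Wars and Wdr25 is shown because it lies under this Nsl1 signal. It held 63.9% G and C and none of the motif letters, so no letter is in capitals.
Wars, upstream start, chr12:110132385-110132481, minus strand: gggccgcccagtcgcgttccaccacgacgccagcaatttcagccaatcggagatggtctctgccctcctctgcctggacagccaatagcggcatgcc

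A TSS of another protein-coding gene lay within 1 kb at 9 of 36 members (25%, against 11.5% of all TSSs tested), so that reads there could belong to either gene. Hars and Hars2, the cytosolic and mitochondrial histidine genes, start 197 bases apart on opposite strands and share most of their windows. They had 116 and 108 Nsl1 reads, ratios of 8.12 (6.71 to 9.73) and 7.57 (6.21 to 9.14), and 36 and 37 Msl1 reads, ratios of 2.93 (2.06 to 4.06) and 3.02 (2.13 to 4.16). These values are not independent, and the Msl1 ratio of 3 fell between them. The other neighbours were Terf2ip at Kars, D17H6S56E-5 at Vars, S100pbp at Yars, Ubfd1 at Ears2, Lyrm4 at Fars2, Orc3 at Rars2 and Mrps12 at Sars2. Upstream of these TSSs, from 500 to 2000 bases, Msl1 stood at 2.89 times the local level at Ears2, 2.78 at Kars, 2.65 at Yars and 2.34 at Sars2, and between 1.2 and 1.61 at the other 5, where the median of all members was 1.14.

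The signals of Msl1 and Nsl1 were placed differently around the synthetase TSSs. In bins of 100 bases, Nsl1 was highest in the bin just upstream of the TSS in both compartments, at 7.71 times the local level (6.70 to 8.82) over the cytosolic and 11.4 times (9.95 to 12.9) over the mitochondrial genes. Msl1 was highest from 200 to 300 bases downstream over the cytosolic genes, at 5.97 times (5.08 to 6.98), and from 300 to 400 bases over the mitochondrial genes, at 5.78 times (4.74 to 7.0). The same maxima over all TSSs were 3.64 in Nsl1, in the same bin, and 3.21 in Msl1, from 200 to 300 bases. The bins pool the reads of all genes of a group, and their intervals do not cover the spread between genes. Tars2 alone had 103 Nsl1 reads in the 200 bases around its TSS, where the mitochondrial bins on either side of the TSS held 233 and 206. A smaller Nsl1 rise about 1 kb upstream of the cytosolic TSSs lies where the upstream start of Wars is, and Wars alone had an Nsl1 level of 8.0 from 500 to 2000 bases upstream, against a median of 1.14.

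**Figure D3:**
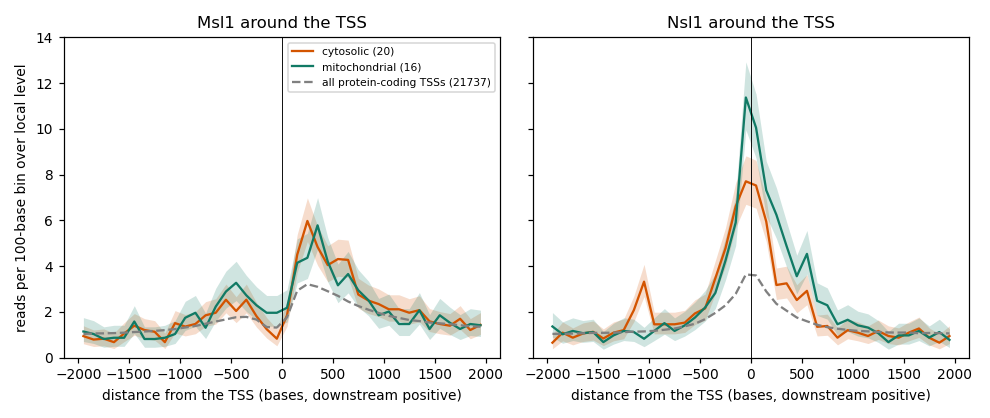
Reads per 100-base bin over the local level (vertical axis) against the distance from the TSS in bases, downstream positive, in Msl1 and Nsl1. Lines are the 20 cytosolic genes, the 16 mitochondrial genes and, dashed, the 21737 protein-coding TSSs tested. Bands are 95% Poisson intervals of the pooled reads and do not cover the spread between genes. Nsl1 peaks at the TSS, up to 11.4 over the mitochondrial genes, and Msl1 200 to 400 bases downstream, up to 5.97 over the cytosolic genes.

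The summit, the middle of the 200 bases with most reads within 1 kb, gave the position gene by gene. The Nsl1 summit lay within 200 bases of the TSS at 29 of 36 genes (43.7% of all TSSs). The Msl1 summit lay downstream of the TSS at 28 of 36 (61.9%), 18 of 20 cytosolic and 10 of 16 mitochondrial genes. A summit was taken at every TSS, enriched or not, so the shares over all TSSs cannot separate placement from enrichment. Some member summits held few reads, as 8 in Msl1 at Aars2 and 10 at Mars. At Eprs the Nsl1 summit was 200 bases upstream with 72 reads and the Msl1 summit 200 bases downstream with 14 reads. At Tars2 the Nsl1 summit was at the TSS with 103 reads and the Msl1 summit 400 bases downstream with 23. At Dars and Fars2 the Nsl1 summit lay 500 bases downstream, with 37 and 48 reads. The Msl1 summit was upstream at Wars, Yars, Aars2, Cars2, Ears2, Rars2 and Sars2, of which Yars, Ears2, Rars2 and Sars2 have a neighbour within 1 kb and Wars has Wdr25 just beyond that. At Hars2 it was at the TSS.

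Downstream of the TSS, Nsl1 fell off and Msl1 did so less. The downstream ratio, reads per kb from 500 to 2000 bases over reads per kb within 500 bases, had a median of 0.254 in Nsl1 and 0.613 in Msl1, against 0.648 and 0.821 over all TSSs. Msl1 had the higher downstream ratio at 33 of 36 genes (65.5% of all TSSs). The exceptions were Wars, Cars2 and Iars2. The lowest Nsl1 values were at the genes with the highest Nsl1 ratios, 0.0587 at Eprs, 0.0781 at Tars2 and 0.0953 at Lars2, and a high count at the TSS lowers this ratio by construction. No member had an Nsl1 downstream ratio of at least 1 (25.5% of all TSSs), and 6 had one in Msl1 (36.7%), namely Iars, Lars, Qars, Rars, Mars2 and Fars2. At Iars the Msl1 ratio within 500 bases was 1.67 (1.02 to 2.58), but 61 Msl1 reads from 500 to 2000 bases stood at 3.40 times the local level, and the Msl1 summit lay 600 bases downstream. Lars had its Msl1 summit at the same distance, with 40 reads and 2.04 times the local level downstream. Mars2 had 87 Msl1 reads there, 5.54 times the local level and the highest of the group, and this stretch lies within its only exon. Of the 6 genes, Iars, Lars, Qars and Rars belong to the multi-synthetase complex, and the median Msl1 downstream ratio was 0.942 over the 8 complex genes and 0.692 over the other 12 cytosolic genes. Their Msl1 reads from 500 to 2000 bases over the local level had the opposite order, with medians of 2.05 and 2.46, and a low count at the TSS raises the ratio by construction.

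**Figure D4:**
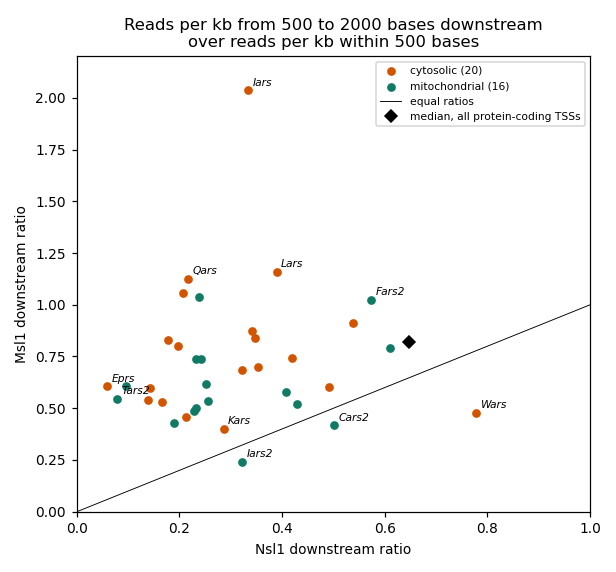
Downstream ratio of each synthetase gene in Nsl1 (horizontal axis) and Msl1 (vertical axis), reads per kb from 500 to 2000 bases over reads per kb within 500 bases, for 20 cytosolic and 16 mitochondrial genes. The diamond is the median of all protein-coding TSSs and the line marks equal ratios, above which 33 of 36 genes lie. Iars is highest in Msl1 at 2.04 and Wars highest in Nsl1 at 0.779.

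Over the gene bodies, from 2 kb after the TSS to the gene end, Msl1 was raised at a part of the cytosolic genes. The level was at least 1.2 times the local level at 8 of 20 cytosolic and 2 of 14 mitochondrial genes in Msl1, beside 26.3% of 16055 genes over 5 kb, and at 0 of 34 in Nsl1, beside 10.2%. Over both compartments the Msl1 share, 10 of 34 (29.4%), was near its background. The threshold of 1.2 was chosen after the values had been seen. Mars2 and Pars2 were shorter than 5 kb and gave no value. Tars had the highest Msl1 body level, 1.83 (1.59 to 2.10) from 205 reads, followed by Aars with 1.5 (1.36 to 1.64) and Cars with 1.41 (1.31 to 1.52). Sars and Kars had 1.39, Nars 1.37, Gars 1.30 and Farsb 1.22, and the mitochondrial genes past 1.2 were Tars2 with 1.24 and Yars2 with 1.22, whose interval of 0.955 to 1.54 held 1. The other 12 cytosolic genes lay between 0.811 at Yars and 1.10 at Wars, and the other 12 mitochondrial genes between 0.860 at Iars2 and 1.14 at Wars2. In Nsl1 all 34 bodies lay between 0.778 at Hars and 1.19 at Tars. The local level includes parts of the gene itself at long genes, and against the level of the whole library 15 of 20 cytosolic and 6 of 14 mitochondrial bodies were past 1.2 in Msl1, beside 36.2% of all genes at that setting. Against that level Aars had the highest Msl1 body with 2.07, and Tars had 1.41. The Msl1 local level at Tars, 7.99 reads per kb, was the lowest of the cytosolic genes.

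**Figure D5:**
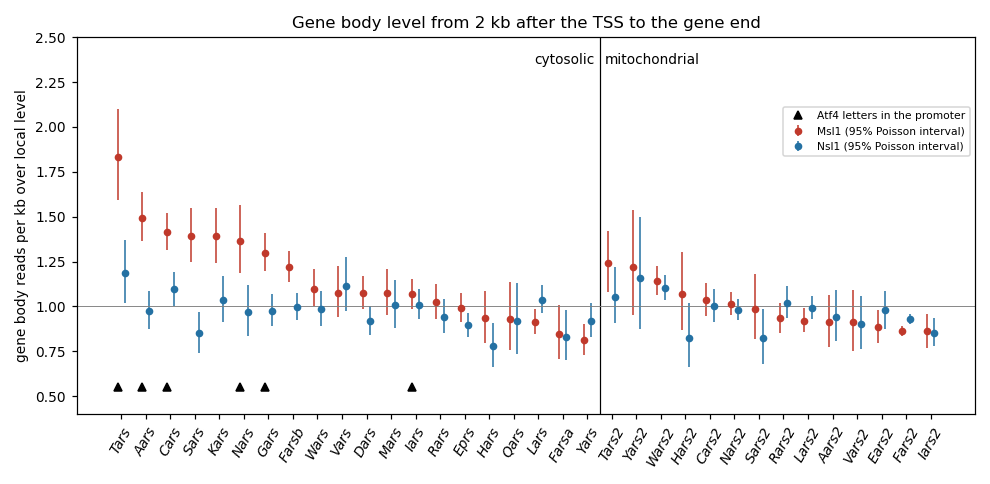
Reads per kb over the gene body, from 2 kb after the TSS to the gene end, over the local level (vertical axis) in Msl1 and Nsl1, with exact 95% Poisson intervals. The 20 cytosolic genes stand left of the line and 14 mitochondrial genes right of it, and triangles mark the 6 promoters with the letters TGATGNAA. Of the triangles, 5 stand at genes with an Msl1 body level of at least 1.2 (26.3% of all genes over 5 kb), the highest being Tars at 1.83.

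The letters TGATGNAA, as bound by Atf4 at amino acid response elements, stood on either strand of the promoter, from 250 bases before to 50 bases after the TSS, at 6 of 20 cytosolic genes and at none of the 16 mitochondrial genes. Of all 22359 promoters of this length, 3.56% held them. The 6 genes are Aars, Cars, Gars, Iars, Nars and Tars, and Aars holds the letters 2 times. Of these, 5 had an Msl1 body level of at least 1.2, the exception being Iars with 1.07, and 3 of the other 14 cytosolic genes did. The share over all genes over 5 kb was 26.3%. The median Msl1 body level was 1.39 over the 6 genes and 1.05 over the other 14, a difference of 1.33 times that was 1.09 times against the level of the whole library. Their median Nsl1 body level was 0.993. At the TSS the medians of these 6 genes were 3.73 in Msl1 and 4.11 in Nsl1, against 2.88 and 4.22 over the other cytosolic genes. Against the level of the whole library, 6 of the 6 genes and 9 of the other 14 had an Msl1 body level of at least 1.2, beside 36.2% of all genes. The letters are shown in their sequence for Tars, Gars, Aars, Cars and Iars, while Nars is named only, with 200 bases upstream of Gars and Tars and shorter stretches where the letters lie in an exon. Capitals mark TTNCATCA, which is TGATGNAA read on the other strand, an Ets match in Gars and an Nrf1 match in Tars. A match of letters is a description and does not show that Atf4 was bound.
Tars, chr15:11329414-11329613, minus strand: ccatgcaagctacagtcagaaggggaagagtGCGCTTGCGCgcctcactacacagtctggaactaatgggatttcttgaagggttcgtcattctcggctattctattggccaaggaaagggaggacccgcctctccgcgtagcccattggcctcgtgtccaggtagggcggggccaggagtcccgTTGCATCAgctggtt
Gars, chr6:54987795-54987994, plus strand: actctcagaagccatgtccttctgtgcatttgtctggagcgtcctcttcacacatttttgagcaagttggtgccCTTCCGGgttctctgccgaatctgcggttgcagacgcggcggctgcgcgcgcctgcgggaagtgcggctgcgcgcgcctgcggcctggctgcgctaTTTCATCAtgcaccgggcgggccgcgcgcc
Aars, the match nearer the TSS, chr8:113557740-113557769, plus strand: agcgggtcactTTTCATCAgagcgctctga
Cars, first exon, chr7:150785946-150785975, minus strand: gccgcggTTGCATCAgattctggaaggcgt
Iars, first exon, chr13:49777497-49777526, plus strand: ctgtcagtaTTGCATCAcctccagacgcgg

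The Ets letters CCGGAAG stood in 16 of 36 promoters (10.9% of all), 11 cytosolic and 5 mitochondrial, and the Nrf1 motif in 7 (6.03%), among them Tars, Iars2, Mars2 and Pars2. The Yy1 letters AAGATGGC stood in 6 (3.43%), of which Aars2, Sars2, Wars2 and Yars2 are mitochondrial and hold them from 3 to 35 bases after the TSS. The E-box CACGTG, which reads the same on both strands, stood in 4 (7.78%), all cytosolic, and TATAAA in 3 (13.4%). Both strands were searched, and no motif overlapped another in any member. The promoters had a median of 57.5% G and C, against 56.0% over all, and a median observed over expected CpG ratio of 0.776 against 0.569.

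The balance of the libraries was measured by the Msl1 to Nsl1 ratio, reads within 2 kb of the TSS per read of each library. Its median was 1.08 over the 36 genes and 1.28 over the 14628 TSSs with at least 100 reads, and 12 of 36 genes lay above the latter. No member was at least 2 times above that median (4.45% of TSSs), and 4 were at most 0.5 times it (4.88%), Eprs, Farsa, Pars2 and Wars2, with Msl1 to Nsl1 ratios between 0.575 and 0.635. With a window of 1 kb more members were at most 0.5 times the median, as given below. The highest values were 2.32 at Kars (1.78 to 3.03), 2.27 at Yars (1.77 to 2.93) and 2.01 at Vars (1.54 to 2.64), all of which have a neighbour TSS within 1 kb. Cars followed with 1.98 (1.48 to 2.66) and has none. The median was 1.22 over the cytosolic and 0.936 over the mitochondrial genes.

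A list of 18 other genes of tRNA charging and tRNA processing had levels close to those of the synthetase genes. Of these, 14 reached an Nsl1 ratio of 3 (24.2% of all TSSs) and 10 an Msl1 ratio of 3 (23.8%), with medians of 4.77 and 3.10. The highest in both libraries was Aimp1, a scaffold of the multi-synthetase complex, with an Nsl1 ratio of 22.9 (19.9 to 26.2) from 209 reads and an Msl1 ratio of 4.81 (3.44 to 6.56) from 40, and its neighbour Tbck starts 265 bases away. The lowest were Eef1e1, another scaffold of the complex, in Nsl1 with 1.97 (1.27 to 2.90), and Trit1, which modifies tRNAs, in Msl1 with 1.64 (1.05 to 2.44).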

How the data were processed

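Chromatin of wild type mESCs was sequenced as single-end reads after precipitation with anti-Msl1 or anti-Nsl1. Base calling with CASAVA 1.8.2 and alignment to mm9 with Bowtie 0.12.7 were done by the authors, who state that they used unique reads. The deposited tables give the position, strand and an alignment score of each read, and this score is 255 throughout and was not used. Of the nuclear reads, 18.3% in Msl1 and 4.56% in Nsl1 repeated a position and strand and were dropped.

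Reads were moved by 107 bases (Msl1) and 65 bases (Nsl1), to the middle of fragments of 215 and 130 bases given by strand cross-correlation. TSSs were those of the protein-coding transcript with the longest coding sequence in GENCODE for mm9, another release than the one the authors annotated with, and positions count from 1. TSSs with under 1 read expected per window in either library were not tested (21737 of 22359 were), and all 36 members passed. No Input was used here. Python 3.11.15, numpy 2.4.6, pandas 2.3.3, scipy 1.17.1 and matplotlib 3.10.9 were used, and the ratios with their intervals were tested on simulated data.

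All members were named, other genes only as neighbours within 1 kb or as the extremes of the list of tRNA genes. Wdr25 and Tbck, neighbours outside this rule, were named after their values were seen. The members and lists were chosen with earlier results of these data known. Alternatives were all reads kept, other windows, levels, starts, shifts and thresholds, and gene body settings were added after seeing the data.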

Additional observations from a re-analysis of the deposited data

How the results depend on the processing

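No paired analysis was possible because each antibody has 1 library, and for the same reason no library could be left out. Depth limits single genes: 18 to 171 reads lay within 500 bases of a TSS. The count of 19 genes with an Msl1 ratio of at least 3 was 31 at a threshold of 2 and 4 at 5 (46.4% and 3.67% of all TSSs), and the 29 genes in Nsl1 became 17 at a threshold of 5 (9.92%). The windows of 250 and 1000 bases changed the Nsl1 median from 4.59 to 6.32 and 3.12, the latter with 19 genes at a ratio of 3 (13.6% of all TSSs). The Msl1 median of 3.09 was 2.60 with 250 bases and 3.74 against the genome level. Counting downstream reads from 1000 bases gave median downstream ratios of 0.496 in Msl1 and 0.204 in Nsl1, and turned the mitochondrial over cytosolic median in Nsl1 from 0.814 to 1.02. The mitochondrial over cytosolic median of the Msl1 ratio, 1.05, turned to 0.970 with the level from 10 to 100 kb and to 0.866 with the genome level, while that of the Nsl1 ratio stayed between 1.21 and 1.44 under the alternatives run. A window of 1 kb gave 7 genes, in place of 4, with an Msl1 to Nsl1 ratio at most 0.5 times the median. The share over all TSSs was not computed at that window. At the most upstream start, 1 pair in place of 2 had the cytosolic gene higher in Msl1, and 1 in place of 0 in Nsl1 (tryptophan). With 1000 bases, 1 pair (alanine) did so in Nsl1. Against the genome level, Msl1 bodies of at least 1.2 numbered 15 cytosolic and 6 mitochondrial (36.2% of all genes). Nsl1 bodies numbered 4 cytosolic (13.4%), with 1 at the level from 10 to 100 kb (11.9%). Of 504 values of single genes under alternatives, 89 left the counting interval of the main value, 37 of them with 250 bases and 31 with 1000. The cause of these changes was not tested.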

Other observations

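The enzymes fall into class I and class II by the fold of their catalytic domain, and Eprs holds both. Among the cytosolic genes, the 10 of class II had a median Msl1 ratio of 3.64, an Nsl1 ratio of 5.49 and an Msl1 body level of 1.33, and the 9 of class I had 2.47, 3.45 and 1.07. The order of the body levels turned over against the level of the whole library, with 1.37 in class II and 1.57 in class I. The ranges of the Msl1 ratio overlapped, from 2.34 at Farsa to 6.0 at Tars in class II and from 1.52 at Mars to 3.45 at Cars in class I. Among the mitochondrial genes the order of the medians at the TSS was the other way, with 2.85 in Msl1 and 5.54 in Nsl1 over 7 genes of class II and 3.41 and 6.81 over 9 of class I. These groups were formed after the values had been seen and no test was made. They also share genes with the groups above. The complex genes with an Msl1 ratio under 3, Iars, Lars, Mars, Qars and Rars, are all of class I. The genes with the Atf4 letters and an Msl1 body level of at least 1.2, Aars, Cars, Gars, Nars and Tars, all lie outside the complex, and Iars lies within it. Class, complex and Atf4 letters are therefore not separate patterns here.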
